A study of Ooceraea biroi with 96 samples.

Results

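The 20 brains of 1-day-old clonal raider ants (Ooceraea biroi) of genotype M that grew up in social environment M, written MinM, were compared among themselves, out of 96 brains in the whole series. They were ordered by the level of the gene LOC105275422 in CPM, that is, its count divided by the library's total count and multiplied by 1000000. The 10 brains with the highest CPM and the 10 with the lowest were then set side by side over all other genes. The 2 sides were thus chosen by measured values of these same libraries, and every difference between them is given as a description, with no test. LOC105275422 was used because it falls steeply with age, so the order was meant to run from less to more mature brains. Tests were run on libraries that the ordering did not use.

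In the study, newly hatched larvae of the clonal lineages B and M were moved into colonies of either lineage, and single whole brains were sequenced. The 1-day-old groups held 20 MinM, 14 MinB (genotype M, environment B), 9 BinM and 7 BinB brains. The 8-day-old groups held 14 MinM, 12 MinB, 10 BinM and 10 BinB brains. No other treatment is labelled in any group, and all ants were transferred as larvae, whether into their own lineage or the other. Replicates are separate individuals, but the sources used here do not say which of them shared a colony, so p-values treat individuals as independent. The titles of the 2 ages take different forms, so age and sample set cannot be told apart. In whole brains, fewer cells of a type and less RNA per cell cannot be told apart either.

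The clonal raider ant has no queens, and its workers lay unfertilised eggs that develop into genetically near-identical daughters. A worker that has just left the pupa is called a callow: its cuticle is pale and soft and it takes little part in foraging. In ants and other holometabolous insects the brain is rebuilt during the pupal stage, and neuropils and gene expression go on changing in the days after emergence. The annotation used here gives no product names, so the genes below are known by identifier, place and class only.

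LOC105275422 is a protein-coding gene on the plus strand of chromosome 3 (6449680 to 6453994, in the coordinates of the deposited table). In the 20 MinM brains of day 1 it ran from 1.03 CPM in replicate 17 (22 counts) to 2590 CPM in replicate 9 (57503 counts), with a median of 492. The 10 highest brains held 521 to 2590 CPM (median 757). The 10 lowest held 1.03 to 464 CPM (median 149). The last brain of the high side, replicate 2, stood at 521 CPM and the first of the low side, replicate 15, at 464 CPM, so the line between the sides cut through a continuous series. At the low end, replicates 11, 5, 1 and 17 stood at 37.1, 23.3, 11.5 and 1.03 CPM.

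The other day 1 groups overlapped the MinM range of LOC105275422, but the genotype B brains did not reach its low end. MinB ran from 10.4 to 6047 CPM (median 295), BinM from 136 to 1833 CPM (median 321) and BinB from 61.2 to 2459 CPM (median 429). At day 8 the highest of the 46 brains stood at 4.21 CPM, and the group medians lay between 0.256 CPM in BinM and 0.584 CPM in BinB. Only 1 of the 50 brains of day 1, MinM replicate 17, lay within the range of the day 8 brains.

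**Figure D1:**
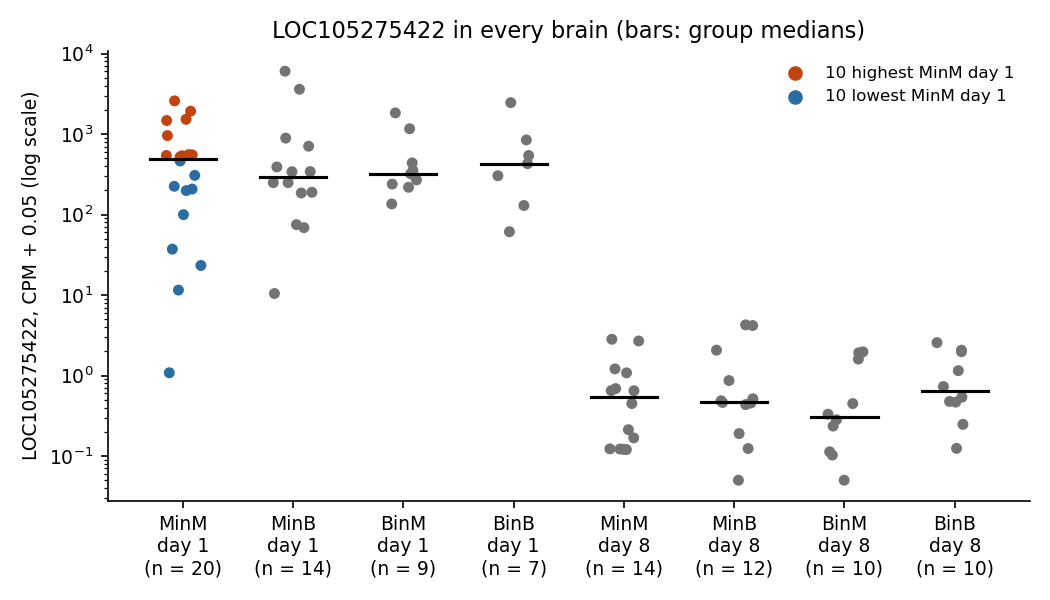
LOC105275422 in each of the 96 brains, in CPM plus 0.05 on a log scale, by group. Points are brains, orange and blue mark the 10 highest and 10 lowest MinM brains of day 1, and bars are group medians; MinM day 1 spans 1.03 to 2590 CPM, while no day 8 brain exceeds 4.21 CPM.

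The 2 sides overlapped in sequencing depth. Total counts were 17.6 ± 3.15 megacounts in the high brains and 17.1 ± 2.35 in the low brains (SD, n = 10 each). Genes with at least 1 count numbered 10910 ± 139 and 10951 ± 116. Replicates 1 and 18 on the low side and 2 on the high side held 14859 to 18475 CPM of another gene, LOC105279483, which stood between 214 and 357 CPM in the other 17 brains. Without these 3 brains, 54 genes in place of the 53 described below were at least 2-fold higher in the high brains and 33 in place of 31 were lower, with 51 and 29 of them shared.

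Over the 8941 genes that averaged 1 CPM or more in the 20 brains, the sides were compared by the mean of log2(CPM + 1), a scale that understates differences of low genes. In the high brains 53 genes stood at least 2-fold higher (0.593% of genes) and 31 at least 2-fold lower (0.347%). The ranges of the 2 sides did not overlap for 2 higher genes (0.0224%) and for no lower gene (0%). The median over all genes was -0.05, and -0.00 with TMM scaling. All 53 higher genes are protein coding, as are 30 of the 31 lower ones, and each set is spread over 12 chromosomes.

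A small set of genes followed LOC105275422 almost step for step. The closest by rank were LOC113561968 (chromosome 5, 5996500 to 5998319) and LOC105276845 (chromosome 3, 9770323 to 9771811), each with a Spearman rho of 0.980 over the 20 brains. LOC105278692, LOC105284941 and LOC105287113 came next, at 0.974, 0.968 and 0.968. These rhos describe brains that were ordered by the same gene, and all values of a brain share its library.

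LOC113561968 also had the largest difference. It held 269 to 1494 CPM in the high brains (median 602) and 1.97 to 276 CPM in the low brains (median 92.1), 3.43 higher on the log2 scale. The sides overlapped only narrowly, since the lowest high brain stood just under the highest low brain. LOC105287113, the next gene on the same strand (5999807 to 6002947), held 87.9 to 563 CPM against 0.469 to 92.9 CPM, a difference of 3.38.

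LOC109611483 (chromosome 5, 7171986 to 7173486) held 74.9 to 341 CPM in the high brains (median 205) and 0.0469 to 118 CPM in the low brains (median 29.8), a difference of 3.16. Its lowest value was a single count in replicate 17. When this gene ordered the brains instead, 8 of the 10 high brains stayed on their side, and replicates 7 and 2 changed places with replicates 15 and 12. By LOC105275422 these 4 brains ranked 6, 10, 11 and 12. The exchange changed the 2-fold counts to 108 higher and 4 lower, of which 41 and 3 were shared with the first ordering.

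LOC105276845 held 16.6 to 79.9 CPM in the high brains and 0 to 14.4 CPM in the low brains, so the sides did not overlap. Replicate 17 had no count of it, which at its depth allows up to 0.141 CPM (3 counts, counting error only). LOC105282593 (chromosome 4, 2810771 to 2812585) was the other gene whose sides stood apart, at 4.61 to 59.7 CPM against 0 to 4.24 CPM, a difference of 2.89.

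LOC105285555 (chromosome 9, 6443856 to 6447748) held 53.1 to 295 CPM in the high brains and 0.610 to 72.9 CPM in the low brains, a difference of 3.14. LOC105286659 (chromosome 6, 5485694 to 5489191) held 23.8 to 107 CPM against 0.938 to 36.1 CPM, a difference of 2.78. Each overlaps a gene on the opposite strand. Since the sources used here do not state whether counting used strand, their counts may include reads of that partner. The same limit holds for LOC105284941, LOC105286373, LOC105285593, LOC105281685, LOC105282233, LOC105281428, LOC105276960, LOC105283508, LOC105282231, LOC105283125, LOC105287521 and LOC105285644. LOC105284186, LOC105282233 and LOC109610977 overlap a gene on their own strand. LOC113562088 (chromosome 6, 11749142 to 11760957) was looser, at 1.52 to 197 CPM against 0.281 to 81.5 CPM, with wide overlap and a difference of 2.08.

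**Figure D2:**
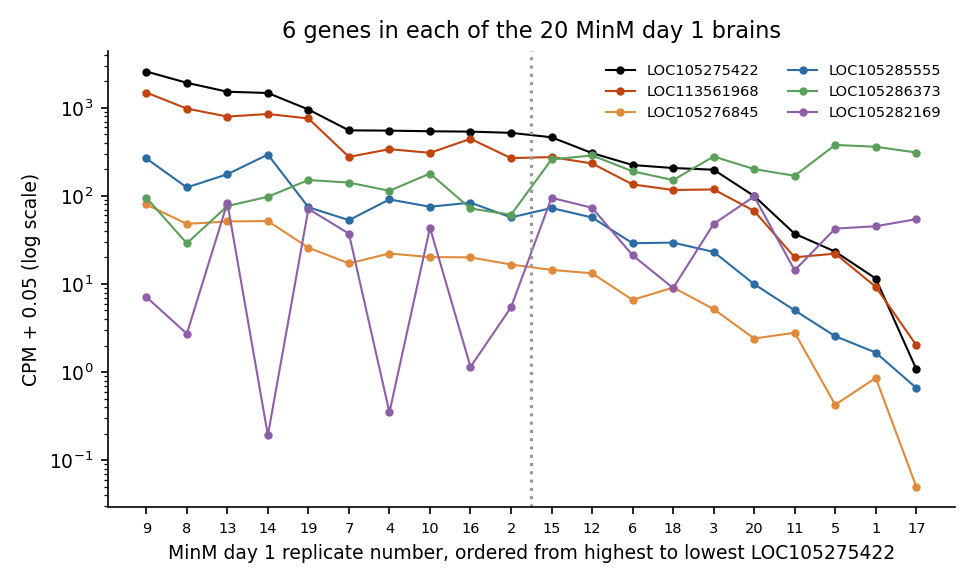
CPM plus 0.05, on a log scale, of 6 genes in each of the 20 MinM brains of day 1, ordered from highest to lowest LOC105275422; the dotted line parts the 10 high from the 10 low brains. LOC113561968, LOC105285555 and LOC105276845 descend with LOC105275422 across both sides, LOC105286373 lies mostly higher on the low side, and LOC105282169 swings between brains of the high side.

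Genes lower in the high brains differed less and overlapped more. The largest difference, -2.10, belonged to LOC105282169 (chromosome 10, 12340501 to 12362320). It ran from 0.142 to 83.3 CPM in the high brains (median 6.23) and from 8.94 to 98.5 CPM in the low brains (median 46.6). Its lowest values lay in high brains, yet replicates 13 and 19 of that side held 83.3 and 71.1 CPM. The highest values, 98.5 and 95.2 CPM, lay in replicates 20 and 15 of the low side. LOC105281460, a long noncoding RNA (chromosome 1, 14681404 to 14689547), held 0.570 to 16.4 CPM against 0.602 to 34.6 CPM, a difference of -1.73.

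LOC105286373 (chromosome 14, 4061143 to 4067341) tracked the order best among the large negative differences (rho -0.788). It held 28.9 to 180 CPM in the high brains and 151 to 379 CPM in the low brains, a difference of -1.43, and only a few brains overlapped. LOC105284153, LOC105285107, LOC105285593, LOC105281685 and LOC105282102 differed by -1.65, -1.61, -1.49, -1.34 and -1.32. The lowest rhos belonged to genes with small differences, from -0.823 for LOC105284186 and -0.815 for both LOC105287723 and LOC105282233 to -0.809 for LOC105280670 and -0.806 for LOC105281293. Their differences lay between -0.37 and -0.11, and the smallest, that of LOC105281293, was -0.04 with DESeq2 size factors.

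The change with age was measured in the 36 genotype B brains, none of which entered the ordering. With edgeR's quasi-likelihood test, 6250 of 9666 genes were called at an adjusted p under 0.05 (64.7%), of which 3151 fell (32.6%) and 3099 rose (32.1%) from day 1 to day 8. With library totals in place of TMM factors, 4422 rose and 2075 fell, and the median of all genes moved to 0.14, so directions of small changes hold relative to TMM. The age change did not pass a test for a difference between the social environments in any gene (edgeR, 0 of 9666 called, 229 with an unadjusted p under 0.05).

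Of the 53 genes higher in the high brains, 50 fell with age in genotype B, 1 rose and 2 were not called. Of the 31 lower genes, none fell, 13 rose and 18 were not called. Over all genes tested in genotype B, 32.6% fell and 32.1% rose, so the 13 rises do not lie far above that share. Of the 8930 genes described in MinM and tested in genotype B, 3045 were not called, a smaller share than among the 31. The 8 largest positive differences, taken over genes averaging 5 CPM or more, belonged to genes that fell by at least 4.56 on the log2 scale. LOC113561968 fell by 9.05 ± 0.505 (SE, edgeR adjusted p = 3.80e-17) and LOC109611483 fell by 9.10 ± 0.533 (adjusted p = 1.26e-16, edgeR). Among genes that averaged 1 CPM or more in the 20 brains, LOC105275422 itself left out, LOC113562088 changed most, and fell by 9.39 ± 0.538 (edgeR adjusted p = 4.99e-17), and LOC105287113 fell by 8.73 ± 0.473 (edgeR adjusted p = 1.83e-17).

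The size of the age change in genotype B ordered the differences among MinM brains. Of the 167 genes that fell at least 4-fold, 90.4% stood higher in the high brains, with a median difference of 0.52. The share was 78.1% of 329 genes that fell 2-fold to 4-fold (median 0.19) and 46.9% of 2501 that fell by less (median -0.01). Of 3045 genes not called with age, 30.6% stood higher (median -0.05), against 32.3% of all 8930 genes.

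Among genes that rose with age the balance lay the other way. Of 2613 that rose under 2-fold, 12.4% stood higher in the high brains (median -0.11), and of 238 that rose 2-fold to 4-fold, 13.9% (median -0.27). Of the 37 that rose at least 4-fold, 27.03% stood higher (median -0.37). With TMM scaling the shares of the 7 classes, from the strongest fall to the strongest rise, became 91.6%, 82.7%, 68.1%, 49.6%, 28.6%, 18.5% and 27.03%, against 49.7% of all genes.

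Across the 8930 genes, Pearson's r between the high minus low difference and the age change of genotype B was -0.567, a description over genes that are not independent replicates. With the age change of MinB as the reference it was -0.584. The relation leaned on the lowest brains: without replicates 11, 5, 1 and 17 it was -0.401, and the 2-fold counts dropped to 26 higher and 24 lower, with 26 and 22 of them shared.

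**Figure D3:**
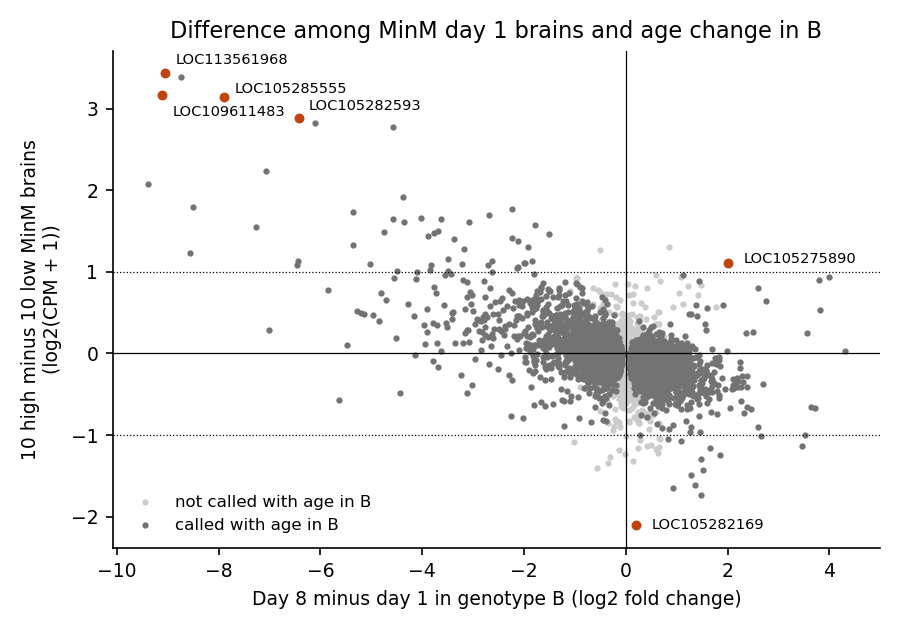
Mean log2(CPM + 1) in the 10 high minus the 10 low MinM brains of day 1, against the day 8 minus day 1 log2 fold change in genotype B, for 8930 genes. Dark points were called with age in genotype B (edgeR), orange points are named, and dotted lines mark 2-fold; r across genes is -0.567, and the genes highest in the high brains lie at the far left.

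A few genes ran against this pattern. LOC105275890 (chromosome 4, 11520426 to 11527923) rose by 2.01 ± 0.630 with age in genotype B (SE, edgeR adjusted p = 0.0058), though not in the BinB brains alone (edgeR adjusted p = 0.121) or with limma-voom (adjusted p = 0.138), yet stood 1.10 higher in the high MinM brains. The high brains ran from 0.214 to 168 CPM (median 4.64) and the low brains from 0.346 to 8.33 CPM (median 1.34), with wide overlap. LOC105276960 and LOC105281428 rose by 1.13 and 3.99 with age (edgeR adjusted p = 0.0236 and 9.40e-07; for the former 0.0544 with limma-voom, 0.145 in BinB alone and 0.0986 in BinM alone) and stood 0.96 and 0.94 higher in the high brains. The latter held 7.04 to 151 CPM (median 9.81) against 2.16 to 27.04 CPM (median 6.82), with wide overlap and a rho of 0.430.

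Among genes averaging 1 CPM or more in the 20 brains, 3 others had the largest rises in genotype B. By the mean of log2(CPM + 1), they did not stand lower in the high MinM brains. A gene near 0 at day 1 meets that limit only where some of these brains hold it high, so these directions depend on the limit. LOC105282231, with a median of 0.0579 CPM over the 20 brains, met it through 1 high brain. LOC105283508 rose by 4.30 ± 0.631 (SE, edgeR adjusted p = 3.01e-07) and differed by 0.03 between the sides. Its median was lower in the high brains (0.380 CPM) than in the low brains (0.670 CPM), and its rho was -0.0466. Its highest high brain stood at 5.91 CPM, beside a mean of 1.07 CPM over the 20 brains. LOC105282231 and LOC105285570 rose by 3.81 and 3.80 (edgeR adjusted p = 9.35e-05 and 3.71e-04), the latter not with limma-voom (adjusted p = 0.0615). Their differences of 0.53 and 0.90 came with single high brains at 38.01 and 109 CPM beside medians of 0.136 and 1.06 CPM, and their rhos over the 20 brains were 0.179 and 0.665. LOC105288145 rose by 6.35 ± 0.775 in genotype B (edgeR adjusted p = 8.31e-09) and reached no more than 0.666 CPM in any MinM brain of day 1. It overlaps 2 genes on its own strand, whose reads it may share.

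Among genes not called with age, the largest differences were those of LOC105282169, given above, LOC105274817 (-1.40) and LOC105281685 (-1.34). LOC105274817 ran from 0 to 9.003 CPM in the high brains and from 0.164 to 12.5 CPM in the low brains, with wide overlap. LOC105281685 held 12.4 to 76.3 CPM against 40.2 to 175 CPM, a clearer shift.

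To place each brain between the ages, an index was formed from genes that were called and changed at least 2-fold in genotype B, LOC105275422 left out. It is the mean log2(CPM + 1) of 416 rising genes minus that of 589 falling genes, scaled so that the mean genotype B brain is at 0 on day 1 and at 1 on day 8. MinM brains of day 8 lay between 0.918 and 1.04, and those of day 1 between -0.222 and 0.535. The 10 high brains ran from -0.222 to 0.169 (median -0.0206) and the 10 low brains from 0.0367 to 0.535 (median 0.169).

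The sides overlapped in the index, and no MinM brain of day 1 reached the day 8 range. Replicates 17, 5 and 1, the 3 lowest in LOC105275422, had the 3 highest indices, 0.535, 0.475 and 0.369. Replicate 11, with 37.1 CPM of LOC105275422, stood at only 0.112. Over the 20 brains, Pearson's r between the index and log2 of LOC105275422 was -0.874 and Spearman's rho -0.802, given as a description, and rho was -0.624 within each side.

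The same relation was tested in the 14 MinB brains of day 1, which entered neither the ordering nor the genotype B comparison. Their index ran from -0.200 to 0.378, and it fell with LOC105275422 (Pearson's r = -0.846, permutation p = 0.00013, adjusted 0.00026 over 2; Spearman's rho = -0.732, permutation p = 0.00401, adjusted 0.00401; two-sided, n = 14). Without replicates 12 and 4, the 2 brains farthest from the median of LOC105275422, r was -0.784 (permutation p = 0.0042) and rho -0.594 (permutation p = 0.0461). The 2 lowest indices belonged to replicates 8 and 12, at 3607 and 6047 CPM of LOC105275422.

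In MinB the relation of the index was seen with the mean of falling genes and not with that of rising ones, though the difference between the correlations was not tested. An index of falling genes alone had r = -0.944 (permutation p = 1e-05, the lowest value possible with 100000 permutations) and rho = -0.930 with LOC105275422. An index of rising genes alone had r = -0.0211 (permutation p = 0.944) and rho = 0.0242 (permutation p = 0.939). Slopes of single genes in MinB, given below, still leaned down for rising genes that averaged 1 CPM or more in MinM. They were positive for 85 of 247 genes that rose at least 2-fold (median -0.03), against 4606 of all 8739 genes. In the MinM brains, as a description, both kinds ran the same way, with r = -0.907 for falling and -0.552 for rising genes. The rising-gene index ran from -0.111 to 0.440 in the high MinM brains (median 0.00487) and from 0.00050 to 0.414 in the low ones (median 0.223).

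**Figure D4:**
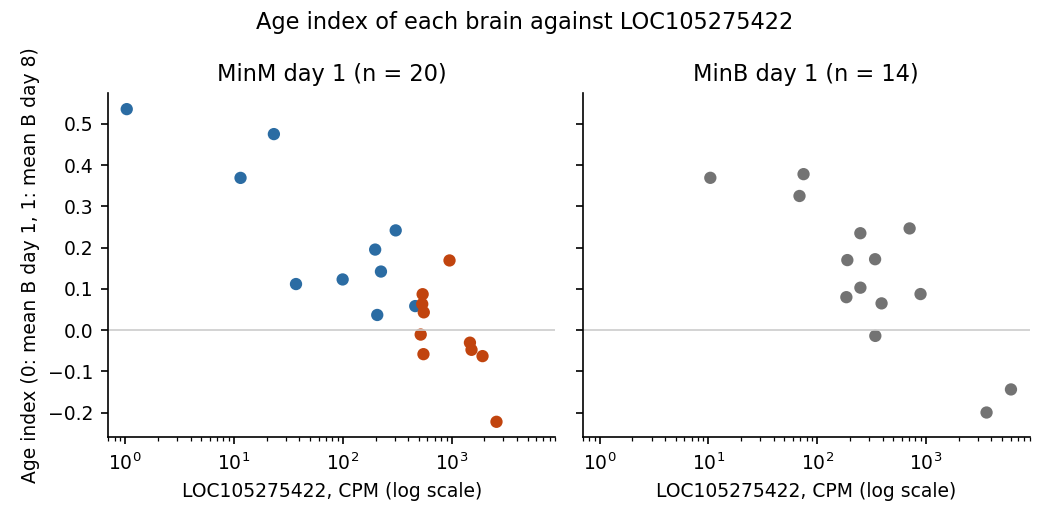
Age index of each brain (0 for the mean genotype B brain of day 1, 1 for day 8) against LOC105275422 in CPM on a log scale, for the 20 MinM and the 14 MinB brains of day 1. Orange and blue mark the 10 highest and 10 lowest MinM brains; the index goes from -0.222 at the highest MinM value to 0.535 at the lowest, and MinB brains show the same direction (r = -0.846).

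Whether single genes vary with LOC105275422 was tested in the 30 day 1 brains outside MinM, as the slope of each gene per log2 unit of LOC105275422 with the 3 groups as a term. Of 9645 genes, edgeR's quasi-likelihood test called 603 with a positive slope (6.25%) and 167 with a negative slope (1.73%). The number rests in part on 1 brain, since without MinB replicate 12, the highest in LOC105275422, 330 genes were called in all. Within MinB alone 430 of 8797 genes were called and within BinB and BinM alone 89 of 9357. A difference of slope between the genotypes was called for no gene (edgeR, 0 of 9645; 755 with an unadjusted p under 0.05).

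All 53 genes higher in the high MinM brains had a positive slope in these other brains, from 0.10 to 1.32 with a median of 0.71, against a median of -0.00 over all genes. Of them 46 were called (edgeR; 47 with DESeq2 and 47 with limma-voom), 41 with a slope of at least 0.5. In MinB alone 30 of the 39 tested were called, where 4.16% of all genes had a called positive slope. In BinB and BinM alone 35 of 53 were called, where 0.951% of all genes had one, and none of the 53 had a negative slope in either subset that tested it.

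The genes that followed LOC105275422 most closely in MinM had slopes near 1. LOC105276845 had a slope of 1.02 ± 0.0244 (SE, edgeR adjusted p = 7.73e-24) and LOC113561968 of 0.93 ± 0.0236 (edgeR adjusted p = 1.85e-23). LOC105285555, LOC109611483, LOC105287113 and LOC105286659 followed at 0.95, 0.93, 0.89 and 0.81, and LOC105282593 had 1.28 (edgeR adjusted p from 7.58e-20 to 3.10e-10). LOC105278692 and LOC105284941 had slopes of 0.83 and 0.76 (edgeR adjusted p = 2.23e-08 and 4.43e-11). A slope of 1 means that a gene doubles as LOC105275422 doubles.

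The 7 genes of the 53 that were not called outside MinM were LOC113562088, LOC105281465, LOC105284088, LOC105279546, LOC105276131, LOC105287190 and LOC105284211, with slopes from 0.10 to 0.31. All of them fell with age in genotype B, with log2 changes from -9.39 to -2.11. They include the most abundant of the 53, LOC105284088, at 4746 CPM on average in the high and 2229 CPM in the low MinM brains. LOC113562088, among the steepest falls with age, had a slope of only 0.31 ± 0.134 (SE, edgeR adjusted p = 0.166; 0.0309 with limma-voom).

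The 31 genes lower in the high MinM brains had no called slope outside MinM (edgeR, 0 of 31, with 1 called negative in DESeq2 and 1 in limma-voom). Over all genes 1.73% had a called negative slope, so few calls among 31 genes could be looked for. An unadjusted p under 0.05 (edgeR) was reached by 5 of the 31 and by 2092 of all 9645 genes. Their slopes were negative for 22 and positive for 9, with a median of -0.06. LOC105286373, which tracked the order in MinM, had a slope of 0.00 ± 0.0903 (edgeR adjusted p = 0.996). LOC105281460 had -0.33 ± 0.146 (edgeR adjusted p = 0.181), and LOC105282169 had -0.03 ± 0.187 (edgeR adjusted p = 0.947).

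**Figure D5:**
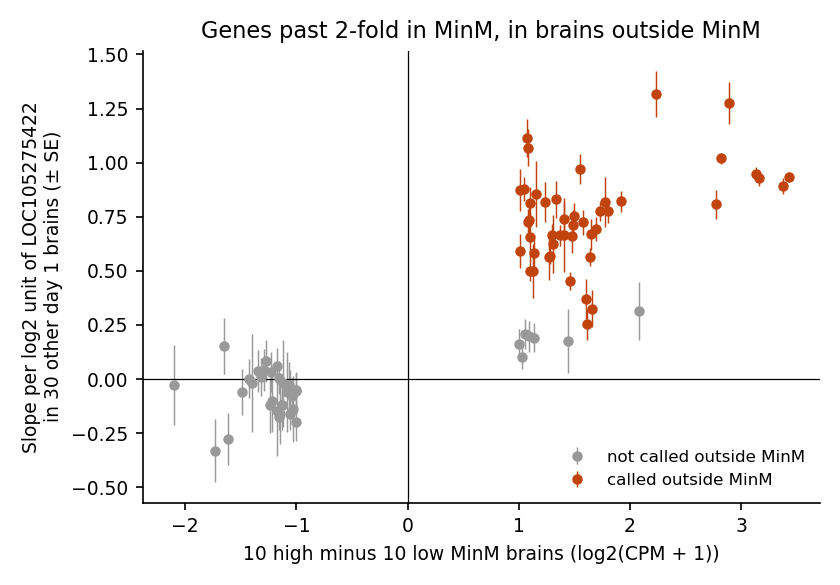
Slope per log2 unit of LOC105275422 in the 30 day 1 brains outside MinM (± SE), against the high minus low difference of log2(CPM + 1) in MinM, for the 53 genes at least 2-fold higher and 31 at least 2-fold lower in the high MinM brains. Orange genes were called outside MinM (edgeR). The 53 higher genes all have positive slopes and 46 are called, where 6.25% of all genes have a called positive slope. None of the 31 lower genes is called, where 1.73% of all genes have a called negative slope.

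The slopes outside MinM and the differences within it share no library. Of the 524 genes with a called positive slope that were also described in MinM, 446 stood higher in the high brains (median difference 0.25). Of the 165 with a called negative slope 0 did (median -0.23). Of the 8930 genes also tested in genotype B, 32.3% stood higher. With TMM scaling these counts were 478 and 3, beside a share of 49.7%. Across 8937 genes, r between slope and difference was 0.643, as a description. The largest negative slopes were taken over genes averaging 5 CPM or more in the 30 brains outside MinM. They were those of LOC105283125, LOC105287521, LOC109610977 and LOC105285644, from -0.22 to -0.17 (edgeR adjusted p from 0.0473 to 5.45e-05). The differences of these genes in MinM lay between -0.54 and -0.09. None of these 4 slopes was called in BinB and BinM alone, and those of LOC105283125 and LOC109610977 were not called in MinB alone either (edgeR adjusted p = 0.104 and 0.0614) or with library totals (edgeR adjusted p = 0.0599 and 0.0659). The slope of LOC105283125 was also not called with a filter of 10 CPM (edgeR adjusted p = 0.0635). With title number added as a block, none of these 4 slopes was called (edgeR adjusted p from 0.115 to 0.312). The highest MinB brain of day 1 held 56.4 CPM of LOC105287521 beside a group median of 12.6.

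In the 14 MinB brains of day 1 the slopes were ordered by the age change of genotype B, with which they share no library. They were positive for 115 of 123 genes that fell at least 4-fold (median slope 0.23), for 265 of 300 that fell 2-fold to 4-fold (0.07) and for 1545 of 2496 that fell by less (0.01). Of all 8739 genes, 4606 were positive. Of the genes that rose, 1052 of 2605 under 2-fold, 81 of 224 between 2-fold and 4-fold and 4 of 23 at least 4-fold had a positive slope, with medians of -0.01, -0.03 and -0.06.

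Some of the genes with a rise in genotype B nevertheless had positive slopes at day 1. LOC105275890 and LOC105276960 had slopes of 0.65 and 0.72 in the 30 brains (edgeR adjusted p = 6.81e-05 and 2.30e-07). LOC105283508 and LOC105285570 had 0.73 and 0.57 (edgeR adjusted p = 1.77e-04 and 7.82e-04). In BinB and BinM alone, the slopes of LOC105276960, LOC105283508 and LOC105285570 were not called (edgeR adjusted p = 0.0729, 0.805 and 0.408). With title number added as a block, none of the 4 slopes was called (edgeR adjusted p from 0.0741 to 0.805). The highest MinB brain of day 1 held 42.3 CPM of LOC105283508 beside a group median of 0.876. For LOC105276960 these values were 35.4 and 1.35 CPM. The slope of LOC105281428, 0.48, was not called (edgeR adjusted p = 0.152), though it was with DESeq2 (adjusted p = 0.0189) and limma-voom (adjusted p = 0.0345). The 30 brains include the genotype B brains of day 1 that also entered the age change.

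On the chromosomes, the 84 genes past 2-fold formed 6 pairs of direct neighbours that differed the same way. These were LOC113561968 with LOC105287113 and LOC105286895 with LOC109611483, both on chromosome 5 and each on 1 strand, LOC105287583 with LOC105287582 on chromosome 5, LOC105282591 with LOC105282593 on chromosome 4, LOC105286651 with LOC105286659 on chromosome 6 and LOC105282161 with LOC105282160 on chromosome 10. The pair on chromosome 6 overlaps at its ends on opposite strands. LOC105282591 had the largest slope of the 53 genes, 1.32 ± 0.105 (SE, edgeR adjusted p = 1.00e-10).

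Of the genes beside LOC105275422 itself, LOC105275423 (6461313 to 6463139, plus strand) was low but moved with it. It held 0.646 to 7.09 CPM in the high and 0 to 2.01 CPM in the low MinM brains, a difference of 1.08, and its slope outside MinM was 1.11 ± 0.0868 (SE, edgeR adjusted p = 7.25e-11). LOC105275420, on the other side and on the minus strand (6266071 to 6399578), did not, at 30.9 to 106 CPM against 71.9 to 92.7 CPM and with a slope of 0.02 ± 0.0159 (SE, edgeR adjusted p = 0.511).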

How the data were processed

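For 96 single-brain libraries, made with a stranded mRNA kit per the labels, the authors deposited a single table of unnormalised gene counts. Alignment was with STAR 2.7.8a and counting with featureCounts, per the submitters' processing notes. Not given in the sources used here are the strand setting, the treatment of multiply aligned reads and the build. Classes and neighbours come from the Obir_v5.4 RefSeq table, which matched 13600 of 13755 features with equal spans outside tRNA genes. MinM totals were 13.9 to 22.2 megacounts at day 1, and all libraries held 10.7 to 26.96.

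Differences among MinM brains used library-total CPM, log2 with a pseudocount of 1 CPM and a mean of at least 1 CPM. The age change (additive social environment) and the slopes (log2(CPM + 1) of LOC105275422, with group) were fitted to the counts with edgeR 4.0.16 in R 4.3.3 (TMM, filterByExpr, robust quasi-likelihood F test, Benjamini-Hochberg over all genes, threshold 0.05). Both fits were also run on simulated counts with at most 67 genes changed at each size, far fewer than were called with age here. Slopes of 0.1, 0.2 and 0.4 were recovered for 43.3%, 83.6% and 90.9% of changed genes. Log2 age changes of 0.25, 0.5 and 1 were recovered for 52.2%, 76.1% and 90.9%. False calls were 2.03% and 2.01% of calls. Permutation tests and figures used scipy 1.17.1 and matplotlib 3.10.9. Alternatives were other scalings, filters, pseudocounts, DESeq2 1.42.0, limma-voom (limma 3.58.1), subsets of libraries and each library left out. The members, gene lists and rules were chosen with earlier results of these data known, and the 2 exclusions of several MinM brains after seeing the values. Named genes were LOC105275422, 2 genes of an earlier description, the 5 highest and 5 lowest rhos, the 8 largest differences each way (mean of at least 5 CPM), the 4 largest age changes each way, the 3 largest differences against or without an age change, the 4 largest called slopes each way and both neighbours. The age changes were taken over genes averaging 1 CPM or more in the 20 MinM brains. The slopes were taken over genes averaging 5 CPM or more in the 30 day 1 brains outside MinM. Other genes were named from complete sets of 7 or fewer, or after their values were seen. Gene-function lists could not be applied, since no product names were at hand.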

Additional observations from a re-analysis of the deposited data

Results flagged for a closer look

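Of 12 tests for a sample standing apart within a group of 4 to 10 brains, run on CPM, 2 were positive, and both concern 1 brain. Their rate of about 1 in 20 by chance assumes normally spread values. It does not apply here, since CPM of these genes ran over wide ranges within day 1 groups. The 2 genes also moved together (Pearson's r = 0.983 on the log2 scale over the 20 MinM brains), so the 2 results are not independent. BinB replicate 2 of day 1 held 2459 CPM of LOC105275422, against 61.2 to 847 CPM in the other 6 brains of its group. The same brain held 681 CPM of LOC109611483, against 26.2 to 195 CPM. Its value of LOC105275422 lies within the MinM range of day 1.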

How the results depend on the processing

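The 6250 age calls in genotype B stayed within 1.5 times of that number under every alternative run. The 770 slope calls outside MinM became 336 with a filter of 10 CPM, 440 with ranks within groups, 430 in MinB, 89 in BinB and BinM, 58 with the replicate block by title number, and 330 to 937 with 1 library left out. Title numbers showed no clear pairing: 7 of 22 same-number pairs correlated above 0.1, and 4 of 30 libraries correlated best with their own number. The correlations of these pairs ran from -0.351 to 0.504, with a median of 0.0284. Whether samples of the same number shared a colony or a batch was not tested. Under the replicate block the 53 genes higher in the high brains all kept a positive slope and 27 were called. The 84 genes past 2-fold became 142 and 33 with pseudocounts of 0.25 and 5 CPM, 46 with a mean of 10 CPM, 254 for 5 against 5 brains, 50 without the 4 lowest brains, and 70 to 102 with 1 brain left out. The correlation of -0.567 with the age change became -0.447 as Spearman's rho and -0.401 without the 4 lowest brains, and ran from -0.591 to -0.511 with 1 brain left out. The MinB index correlation became -0.0211 with rising genes only and ran from -0.899 to -0.800 with 1 brain left out. The causes of these shifts were not tested, except that fewer genes or libraries entered some fits.

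Each value that reversed under an alternative had not passed its test in the reported fit. The age change of LOC105280670 reversed with library totals (0.13), and it was called there as a rise (edgeR adjusted p = 0.0104). Age changes also reversed, without being called, for LOC105282169 in BinM (-0.10) and, in BinB, LOC105281685 (0.26), LOC105282102 (-0.12) and LOC105287521 (-0.0844). Slopes reversed with the replicate block for LOC105282169 (0.31), LOC105285593 (0.00346) and LOC105274817 (0.19), with limma-voom for LOC105282169 (0.0276), LOC105286373 (-0.0198) and LOC105274817 (0.0615), and in BinB and BinM for LOC105286373 (-0.0401), LOC105274817 (0.0669) and LOC105275420 (-0.0088). They also did so in MinB for LOC105282169 (0.22), with a filter of 10 CPM for LOC105284186 (0.000543), and for LOC105286373 with DESeq2 size factors (-0.000103), no filter (-0.000652) and the DESeq2 test (-0.000144). Depth limits the genes under 1 CPM, where a brain gives few counts.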
